A study of Mus musculus with 5 samples.

Results

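Transcribed pseudogenes were examined in RNA-seq data from N2A cells (Neuro-2A, a line derived from a mouse neuroblastoma) in which the RNA helicase UPF1 had been depleted with an siRNA. They are genes that the annotation of the count table lists as pseudogenes with evidence of transcription. They were chosen by their annotated type and by their level, which had to reach 50 raw read counts summed over all 5 libraries. Of 586 genes of the 3 transcribed pseudogene types, 101 reached this level, out of 55573 genes in the table. Among the 101 were 50 processed, 43 unprocessed and 8 unitary pseudogenes. No read was counted for 295 of the 586.

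The 2 groups differed only in the siRNA. In siCtl (n = 2, replicates 1 and 3), N2A cells (ATCC, CCL-131) received 60 pmol of Silencer Negative Control #1, and in siUpf1 (n = 3, replicates 1 to 3) they received 60 pmol of an siRNA against Upf1. Both were transient transfections of a single cell line with no other treatment named, and nothing in the labels says whether the libraries of a group came from separate cultures, so p-values measure the spread between these libraries. The study sought transcripts that depend on UPF1 in neural cells.

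A processed pseudogene is a copy of an mRNA that was reverse transcribed and inserted elsewhere in the genome, so it usually starts without introns. An unprocessed pseudogene is a duplicated gene copy that has lost its coding capacity, and a unitary pseudogene is a gene that was disabled with no working copy left in that genome. UPF1 is essential for nonsense-mediated mRNA decay (NMD), which degrades RNAs whose translation ends at a premature stop codon, classically one well upstream of an exon-exon junction. Pseudogene RNAs often carry such stops, but they are degraded by this route only if they are exported and translated.

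The siRNA had 19 bases, and its sequence in the labels matched the sense strand of Upf1 mRNA. It is shown as the strand complementary to Upf1, with bases 2 to 8 in capitals, because these bases of a guide strand can also pair with RNAs other than the target.
Upf1 siRNA, strand complementary to the mRNA: uAAUUAUCaggaaccuuga
Upf1 had 5217 and 5243 normalised read counts in siCtl and 2403, 2496 and 2449 in siUpf1. Every siUpf1 library thus held less than either siCtl library, and the log2 fold change was -1.10 (SE 0.05, DESeq2 adjusted p = 7.09e-101).

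Libraries held 20402205 to 27717594 assigned reads, with the lowest total in siUpf1 replicate 2, and the 101 pseudogenes took 0.059% to 0.0757% of them. All 10 markers of sympathetic neuroblasts and neurons on a fixed list reached a mean of 100 normalised counts, with sums of 38932 to 39354 in siCtl and 45681 to 48272 in siUpf1. Of 13 markers of fibroblasts, leukocytes, astrocytes, epithelium and endothelium, Pecam1 alone exceeded that mean, and its part in the results was not tested.

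Some sequences show how differently the pseudogenes relate to the genes taken as their source, called parent genes here. Each pair is a stretch of 60 bases inside the coding sequence of the parent, aligned without gaps, with the bases that differ in capitals, taken from the GENCODE M21 transcripts (GRCm38.p6). 2810025M15Rik, a processed copy of the ribosomal protein gene Rpl37a, is shown where the copy gains a stop codon in the frame of the parent, at codon 69. It aligned to Rpl37a over 270 bases only, at 78.1% identity. The alignment holds 2 gaps that shift the frame, so the frame of the parent need not be that of the copy. Gm5124 is a diverged copy of Nolc1, which encodes a nucleolar phosphoprotein that binds small nucleolar ribonucleoproteins. BC106175 is a copy of Prr30, a proline-rich protein gene. Gm15500 is shown as the case with no difference from its parent, the ribosomal protein gene Rpl5.
2810025M15Rik: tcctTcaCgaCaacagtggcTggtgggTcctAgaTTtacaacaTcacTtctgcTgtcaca
Rpl37a: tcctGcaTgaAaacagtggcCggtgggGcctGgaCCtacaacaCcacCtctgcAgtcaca
Gm5124: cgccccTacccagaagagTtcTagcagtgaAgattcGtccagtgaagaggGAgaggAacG
Nolc1: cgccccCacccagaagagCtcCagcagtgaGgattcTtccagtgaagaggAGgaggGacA
BC106175: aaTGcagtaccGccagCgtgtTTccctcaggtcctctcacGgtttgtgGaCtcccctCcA
Prr30: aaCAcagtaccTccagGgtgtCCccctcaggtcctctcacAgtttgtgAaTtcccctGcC
Gm15500 and Rpl5: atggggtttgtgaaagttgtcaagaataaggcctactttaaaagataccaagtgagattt
There were 11 differences from the parent in the stretch of 2810025M15Rik, 9 in that of Gm5124 and 11 in that of BC106175.

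Of the 101 pseudogenes, 14 were higher and 6 lower in siUpf1 by DESeq2's Wald test at an adjusted p under 0.05, and 81 were not called. All 101 entered the test. The share called was 19.8%, whereas 44.9% of the 15191 genes tested were called, 22.0% as higher and 22.9% as lower. The share therefore lay below the background, and it depended on the level. Among the 37 pseudogenes whose mean reached 100 normalised counts, 18 were called (48.6%, against 57.5% of all genes at that level). Among the 64 below it, 2 were called (3.12%, against 12.3%). The siCtl and siUpf1 libraries did not overlap for 55 of the 101, with siUpf1 above in 36 and below in 19, against 69.4% of all genes tested without overlap. Leaving out 1 siUpf1 library at a time kept 14 to 16 of the 20 calls. In those fits 79 to 94 of the 101 had an adjusted p, and 5570 to 6059 of 13702 to 14417 genes tested were called. The quasi-likelihood test of edgeR called 25 higher and 8 lower, in a fit that called 54.6% of all genes tested (27.5% as higher and 27.1% as lower).

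**Figure D1:**
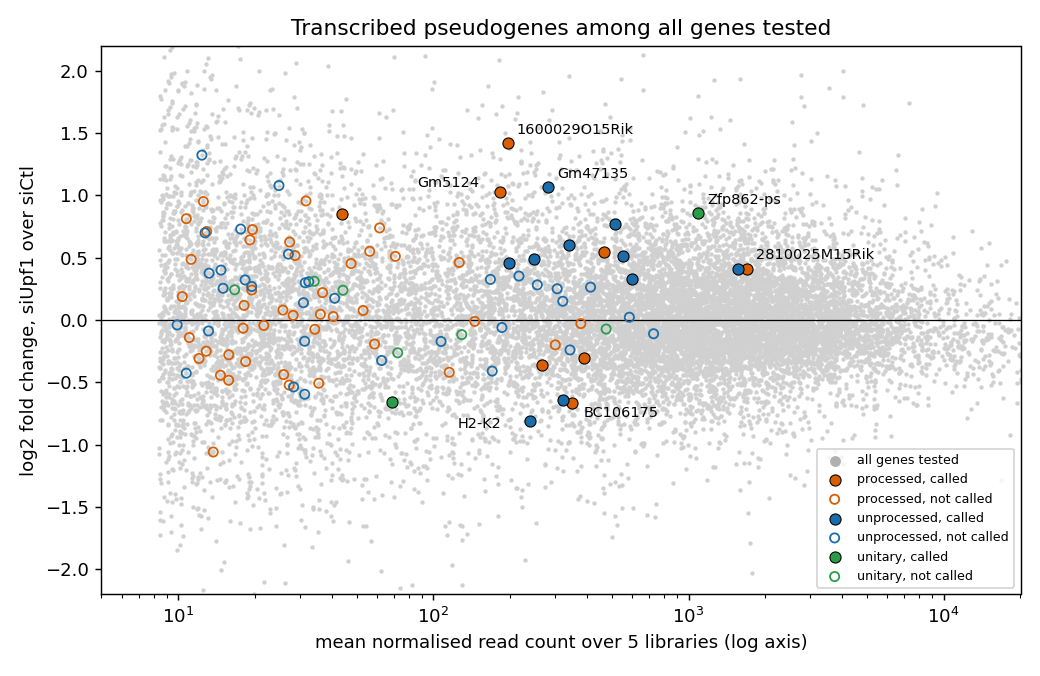
Mean normalised read count over the 5 libraries (horizontal, log axis) against log2 fold change of siUpf1 over siCtl (vertical, from -2.2 to 2.2, so that more extreme genes of the background are not drawn) for the 101 transcribed pseudogenes, coloured by type, over all genes tested in grey. Filled points were called, and 18 of the 20 reached a mean of 100 normalised counts.

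The pseudogenes as a group were shifted slightly upward. Their median log2 fold change was 0.19 (quartiles -0.19 and 0.49), beside -0.0024 for all genes tested, -0.02 for protein-coding genes, 0.19 for lncRNA genes and -0.08 for pseudogenes without the transcribed label. Unprocessed pseudogenes stood at a median of 107 normalised counts and processed ones at 30.2. Of these, 23.3% and 16.0% were called, against 44.9% of all genes tested. Unprocessed pseudogenes had a median log2 fold change of 0.27, with 8 higher and 2 lower among 43. Processed pseudogenes had a median of 0.06, with 5 higher and 3 lower among 50. These medians are descriptions, differences between them were not tested, and none of the medians given here for the pseudogenes changed sign with TMM or total-count size factors, whereas that of all genes tested moved to 0.02 with total counts.

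Most of the pseudogenes were weakly expressed. Per kilobase of exon, their median was 23.2 normalised counts, beside 171 for protein-coding genes that entered the test. The highest level per kilobase was that of 2810025M15Rik at 1203, followed by Gm6222 at 620 and Gm11427 at 530. A few genes dominated the reads: 2810025M15Rik, Gm11427 and Zfp862-ps together took 25.9% of all reads counted for the 101. A level of at least 10 raw counts per library was met in both groups by 92 of the 101, in siUpf1 alone by 7 and in siCtl alone by 2, and none of these 9 was called. Near the minimum, Gm15847, BC085271 and Gm6061 had 50, 52 and 54 raw counts in all, and Gm18787, Ppp1ccb and Gm10364 fell just outside with 48, 48 and 47.

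The largest increase was that of 1600029O15Rik (ENSMUSG00000057818.8, chr9:58202897-58208808, plus strand), a spliced processed copy of Rpl17, which encodes a protein of the large ribosomal subunit. It had 84.9 and 109 normalised counts in siCtl and 272, 254 and 258 in siUpf1. Every siUpf1 library exceeded both siCtl libraries by more than the spread within either group. The log2 fold change was 1.42 (SE 0.19, DESeq2 adjusted p = 1.99e-13). Its parent Rpl17 fell by 0.44 on the log2 scale (SE 0.04), so the copy exceeded the parent by 1.86 (95% interval 1.49 to 2.23). No 100-base window of its transcript occurred in a transcript of another locus. Its exons share 55 bases, on the opposite strand, with Islr2, which encodes a neuronal membrane protein with leucine-rich repeats. Islr2 had 1272 and 1126 normalised counts in siCtl and 2660, 2939 and 2721 in siUpf1, a log2 fold change of 1.21 (SE 0.07). Both genes of this pair were higher in all siUpf1 libraries, and whether they depend on each other was not tested.

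Gm47135 (ENSMUSG00000111837.1, chr9:122682742-122683641, plus strand), an unprocessed pseudogene with 2 exons in its longest transcript, was next. It had 161 and 178 normalised counts in siCtl and 350, 377 and 344 in siUpf1. The siUpf1 libraries all lay well above the siCtl libraries, and the log2 fold change was 1.07 (SE 0.15, DESeq2 adjusted p = 9.35e-12). The 719-base transcript holds the whole 99-base hairpin of Mir138-1, from which miR-138, a microRNA abundant in brain, is cut. The mature strand is shown with its seed (bases 2 to 8) in capitals, as RefSeq gives it (GRCm38.p6, chr9:122682898-122682920, plus strand).
mmu-miR-138-5p: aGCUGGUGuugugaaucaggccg
Mir138-1 itself was listed at 0 in all 5 libraries, which were made from polyadenylated RNA and do not measure mature microRNAs. Its 99 bases lie in an exon of Gm47135, so counting by gene could not assign reads there to either gene alone.

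Gm5124 (ENSMUSG00000051537.9, chrX:21360865-21364622, plus strand) is a processed pseudogene, and its sequence is shown above beside Nolc1. It had 106 and 119 normalised counts in siCtl and 221, 235 and 233 in siUpf1. These groups were well apart, and the log2 fold change was 1.03 (SE 0.18, DESeq2 adjusted p = 1.03e-07). Nolc1 had a log2 fold change of 0.10 and was not called, and the copy exceeded it by 0.93 (95% interval 0.57 to 1.30). The aligned part held 4 frame shifts over the whole coding sequence of Nolc1.

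Of the 8 unitary pseudogenes, Zfp862-ps rose, Slc2a4rg-ps fell, and 6 were not called. Zfp862-ps (ENSMUSG00000107476.2, chr6:48504337-48534832, plus strand), the remnant of a zinc finger gene, had 691 and 771 normalised counts in siCtl and 1306, 1368 and 1312 in siUpf1. All siUpf1 libraries lay far above the siCtl libraries, and the log2 fold change was 0.86 (SE 0.08, DESeq2 adjusted p = 6.18e-24). Its transcript has 7 exons, and the stop codon of its longest open reading frame lies 1323 nt upstream of the last junction. Slc2a4rg-ps, related to the gene of a regulator of the glucose transporter GLUT4, had 83.9 and 92.5 normalised counts in siCtl and 55.1, 56.5 and 56.2 in siUpf1. The groups did not overlap, and the log2 fold change was -0.66 (SE 0.28, DESeq2 adjusted p = 0.0402). Without any one of the libraries it was no longer called (adjusted p = 0.095 to 0.283). Thap6, which has a DNA-binding THAP domain in species where it is intact, had 459 and 521 normalised counts in siCtl and 507, 439 and 451 in siUpf1, which overlapped. The other 5 were 2810039B14Rik (log2 fold change -0.12), 4930451G09Rik (-0.26), Gm15506 (0.24), Zfp133-ps (0.31) and AC154328.1 (0.24).

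Unprocessed pseudogenes made up most of the remaining increases. Ppp4r1l-ps (chr2:173579320-173659640, minus strand), related to a regulatory subunit of protein phosphatase 4, had 395 and 326 normalised counts in siCtl and 629, 582 and 631 in siUpf1. The siUpf1 libraries lay close together and above both siCtl libraries, and the log2 fold change was 0.77 (SE 0.12, DESeq2 adjusted p = 4.09e-10). It is also the pseudogene with the most exons among the 100 found in the reference, with 16 in its longest transcript, and the stop of its longest reading frame lies 1359 nt upstream of the last junction. 2610005L07Rik (chr8:20385782-20424814, minus strand) had 455 and 426 normalised counts in siCtl and 631, 615 and 641 in siUpf1. These did not overlap, and the log2 fold change was 0.52 (SE 0.11, DESeq2 adjusted p = 4.90e-06). Nearby, 6820431F20Rik (chr8:20262613-20297432, minus strand) shares 656 windows of 100 bases with it, and both align to part of the cadherin gene Cdh11, which had a mean of 1.88 normalised counts. 6820431F20Rik had 281 and 269 normalised counts in siCtl and 344, 289 and 345 in siUpf1, above siCtl in every library but not called, with a log2 fold change of 0.25 (SE 0.14).

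Pseudogenes that resemble zinc finger genes were found among both types. For 12 of the 101 (7 unprocessed and 5 processed), the best alignment was to a gene with a Zfp, Zkscan or Zscan symbol. Such genes encode DNA-binding proteins with zinc fingers. Zfp939 and Zfp125 aligned best to genes with other symbols and are not among the 12. The best match need not be the gene of origin: Zfp264, Zkscan7 and Zfp389 all matched Zfp113, at 72.4%, 71.6% and 69.1% identity. Of the 12, 3 rose, all unprocessed, none fell and 9 were not called. Their median log2 fold change was 0.34 (0.35 for the unprocessed and -0.44 for the processed ones). Of all genes tested, 44.9% were called, 22.0% as higher and 22.9% as lower. The share of the 12 called as higher was thus near the background, and the share called in either direction lay below it. Of the 7 unprocessed ones 42.9% were called, all as higher. Whether resemblance to zinc finger genes goes with increases was not tested. Zkscan7 (chr9:122903246-122914154, plus strand) had 256 and 265 normalised counts in siCtl and 418, 374 and 394 in siUpf1. All siUpf1 libraries were higher, and the log2 fold change was 0.60 (SE 0.13, DESeq2 adjusted p = 2.53e-05). Gm10033, which aligns to Zfp950, had 188 and 211 normalised counts in siCtl and 311, 257 and 273 in siUpf1, and its log2 fold change was 0.49 (SE 0.16, DESeq2 adjusted p = 0.00562). For Zfp264, the counts were 536 and 502 in siCtl and 693, 612 and 646 in siUpf1, and the log2 fold change was 0.33 (SE 0.10, DESeq2 adjusted p = 0.00475). None of these overlapped between groups. The gene that Zkscan7 and Zfp264 resemble most, Zfp113, rose by 0.33 as well (SE 0.09), and the difference was 0.27 (95% interval -0.04 to 0.59) for Zkscan7 and 0.00048 (-0.27 to 0.28) for Zfp264. For Gm10033 and Zfp950 it was 0.17 (-0.31 to 0.65). Without siCtl replicate 1 or siUpf1 replicate 1, Gm10033 was not called (adjusted p between 0.0748 and 0.141), and without siCtl replicate 3 or siUpf1 replicate 1, Zfp264 was not (between 0.058 and 0.137).

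Among processed pseudogenes, 2810025M15Rik (chr1:157412352-157420236, plus strand) rose at the highest level. It had 1377 and 1447 normalised counts in siCtl and 1890, 1998 and 1766 in siUpf1. The lowest siUpf1 library was above the highest siCtl library, and the log2 fold change was 0.41 (SE 0.07, DESeq2 adjusted p = 6.17e-08). Rpl37a, its parent, fell by 0.17 (SE 0.05), and the copy exceeded it by 0.59 (95% interval 0.42 to 0.76). Per kilobase, the copy stood at 30.2% of the level of Rpl37a. Gm21926, which aligns to part of the inflammasome-family gene Nlrp2, had 387 and 348 normalised counts in siCtl and 537, 541 and 529 in siUpf1. Its groups did not overlap, and its log2 fold change was 0.54 (SE 0.11, DESeq2 adjusted p = 9.71e-06). No read was counted for Nlrp2 in any library. AC102106.1, a partial copy of the small-subunit ribosomal protein gene Rps15, had 28.3 and 31.1 normalised counts in siCtl and 51.6, 46.4 and 62.4 in siUpf1. These counts did not overlap, but its log2 fold change (0.85, SE 0.37, DESeq2 adjusted p = 0.0443) was not called without any one of the libraries (adjusted p = 0.068 to 0.231).

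The remaining increases were in unprocessed pseudogenes that share exon bases with another gene on the same strand. Gm11427, an unprocessed pseudogene of the Schlafen family on chromosome 11 that shares 491 exon bases with the lncRNA gene AI662270, had 1211 and 1411 normalised counts in siCtl and 1988, 1742 and 1486 in siUpf1. The groups were separated by a small gap, and the log2 fold change was 0.41 (SE 0.17, DESeq2 adjusted p = 0.0435). The call was lost without siCtl replicate 1, siCtl replicate 3 or siUpf1 replicate 2 (adjusted p = 0.071 to 0.347). AI662270 itself had a log2 fold change of -0.11 and was not called. 3110053B16Rik, which shares 560 exon bases with the neighbouring pseudogene Zfp125, had 165 and 160 normalised counts in siCtl and 201, 207 and 260 in siUpf1. Its log2 fold change of 0.46 was called (SE 0.18, DESeq2 adjusted p = 0.0267), but not without siCtl replicate 1, siCtl replicate 3 or siUpf1 replicate 3 (adjusted p = 0.14 to 0.237). Zfp125 had overlapping groups and a log2 fold change of -0.17 (SE 0.23). Slfn10-ps, the other Schlafen pseudogene, had 13.6 and 16.0 normalised counts in siCtl and 41.8, 33.9 and 18.7 in siUpf1, and was not called (log2 fold change 1.08, SE 0.52).

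**Figure D2:**
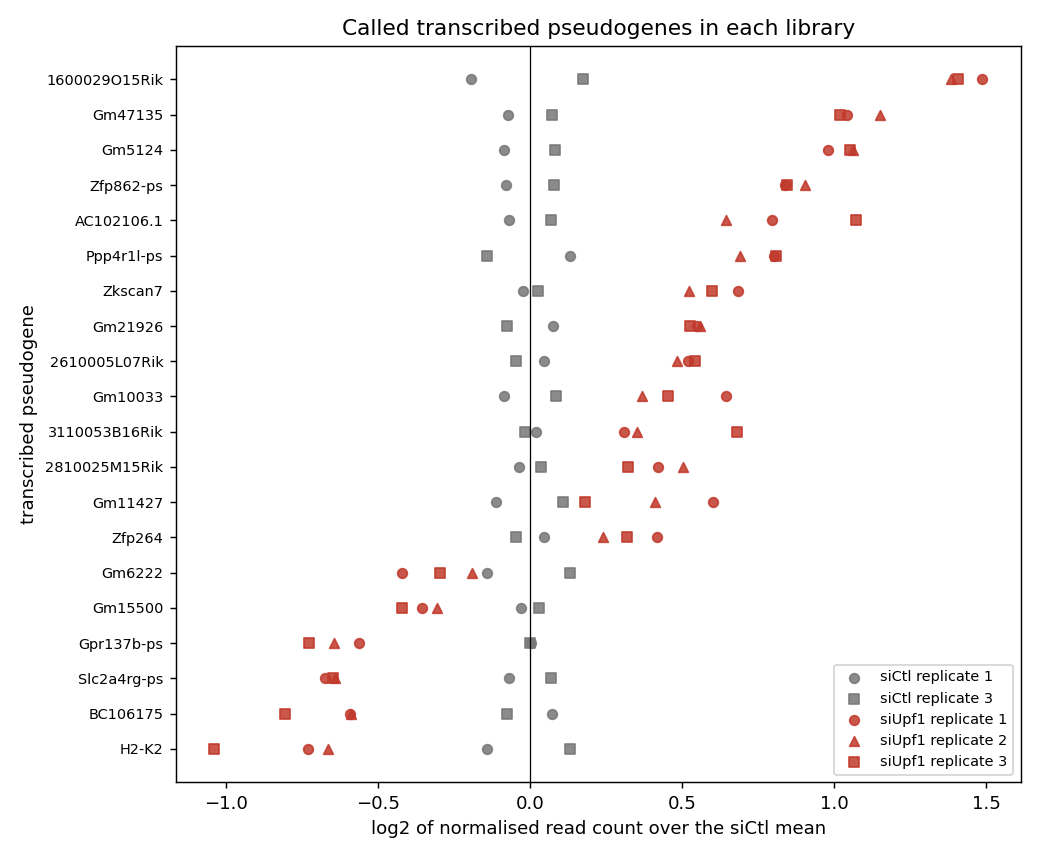
The 20 called transcribed pseudogenes (rows) in each of the 5 libraries, as log2 of the normalised read count over the siCtl mean (horizontal). Grey points are the 2 siCtl libraries and red points the 3 siUpf1 libraries, marked by replicate number, and in all 20 rows the red points lie on one side of both grey points.

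Of the 6 decreases, 3 were in processed, 2 in unprocessed and 1 in unitary pseudogenes. H2-K2 (ENSMUSG00000067203.8, chr17:33974659-33978827, minus strand), a class I gene of the major histocompatibility complex that no longer encodes a full protein, fell most. It had 290 and 351 normalised counts in siCtl and 193, 202 and 156 in siUpf1. Every siUpf1 library was lower than both siCtl libraries, and the log2 fold change was -0.81 (SE 0.17, DESeq2 adjusted p = 6.17e-06). Gm10499, which aligns to the working class I gene H2-D1, had 169 and 231 normalised counts in siCtl and 169, 124 and 157 in siUpf1. These overlapped and were not called (log2 fold change -0.41, SE 0.20), whereas H2-D1 was lower at -0.62. The class I genes are highly polymorphic, and the reference genome is of a different mouse strain than the line, so counts within this family are uncertain.

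BC106175 (chr12:8478874-8482157, minus strand), shown above beside Prr30, had 473 and 426 normalised counts in siCtl and 298, 299 and 257 in siUpf1. The siUpf1 libraries were all lower, and the log2 fold change was -0.66 (SE 0.13, DESeq2 adjusted p = 3.38e-06). Prr30 had 1.26 normalised counts in siUpf1 replicate 2 and was listed at 0 in the other 4 libraries. Gpr137b-ps (chr13:12615057-12650388, minus strand), an unprocessed copy of the lysosomal membrane protein gene Gpr137b on the same chromosome, had 411 and 409 normalised counts in siCtl and 277, 262 and 248 in siUpf1. Its siCtl libraries were nearly equal and above all siUpf1 libraries, and the log2 fold change was -0.64 (SE 0.13, DESeq2 adjusted p = 6.61e-06). Gpr137b fell too, by 0.79 on the log2 scale (SE 0.11), and the difference of 0.15 had a 95% interval from -0.20 to 0.49. Of the windows of the copy, 17.1% also occurred in Gpr137b.

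Gm15500 (chr7:114705217-114706235, minus strand) and Gm6222 are single-exon copies of Rpl5 and of Chchd2, which encodes a mitochondrial protein. Gm15500 had 300 and 312 normalised counts in siCtl and 239, 247 and 228 in siUpf1. Its groups were apart, and the log2 fold change was -0.36 (SE 0.14, DESeq2 adjusted p = 0.0287). Rpl5 fell by 0.43 (SE 0.04), and the difference of 0.07 had a 95% interval from -0.22 to 0.36. Of the windows of Gm15500, 99.9% also occurred in another locus, so its counts are uncertain. Gm6222 had 398 and 481 normalised counts in siCtl and 328, 385 and 357 in siUpf1. The highest siUpf1 library came within a small distance of the lower siCtl library, and the log2 fold change was -0.31 (SE 0.13, DESeq2 adjusted p = 0.0455). Chchd2 fell by 0.26. Gm15500 lost its call whichever of the 5 libraries was left out, while its log2 fold change stayed between -0.40 and -0.33. Gm6222 lost its call without siCtl replicate 3, siUpf1 replicate 1 or siUpf1 replicate 3. Its log2 fold change ranged from -0.44 to -0.16 over the omissions.

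Among the 10 highest means, Tmem181b-ps and Gm13230 were the unprocessed pseudogenes not called. Tmem181b-ps, a copy of the transmembrane protein gene Tmem181a, had 756 and 769 normalised counts in siCtl and 697, 728 and 697 in siUpf1. It lay slightly lower in every siUpf1 library, with a log2 fold change of -0.11 (SE 0.09). Gm13230, which aligns to the zinc finger gene Zfp982, had 578 and 584 normalised counts in siCtl and 660, 577 and 532 in siUpf1, which spanned the siCtl values.

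Parents supported by at least 100 aligned coding bases were found for 76 of the 101, of which 44 were processed and 32 unprocessed. Their parents lay on another chromosome for 38 of the 44 processed pseudogenes, and on the same chromosome for 23 of the 32 unprocessed ones. Identity over the aligned part ranged from 64.8% to 100% among the 64 pairs whose parent entered the test. Per kilobase, the processed pseudogenes of these pairs stood at a median of 2.31% of the level of the parent and the unprocessed ones at 39.4%. The fold changes of copy and parent were compared in those 64 pairs, with intervals that treat the standard errors as independent and are not adjusted for the number of pairs. The interval of the difference excluded 0 in 7 pairs: 5 copies changed upward relative to the parent and 2 downward, all of them processed. Besides 1600029O15Rik, AC102106.1 (0.96, 0.24 to 1.68), Gm5124 and 2810025M15Rik, the fifth was Gm30531, related to Zfp52 (0.85, 0.02 to 1.68). The downward ones were Gm14057 against the phosphatase inhibitor gene Ppp1r14c (-0.70, -1.34 to -0.05) and Zfp389 against Zfp113 (-1.39, -2.76 to -0.02). Zfp113 is only the best match of Zfp389, at 69.1% identity. In the other 57 pairs the interval included 0.

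**Figure D3:**
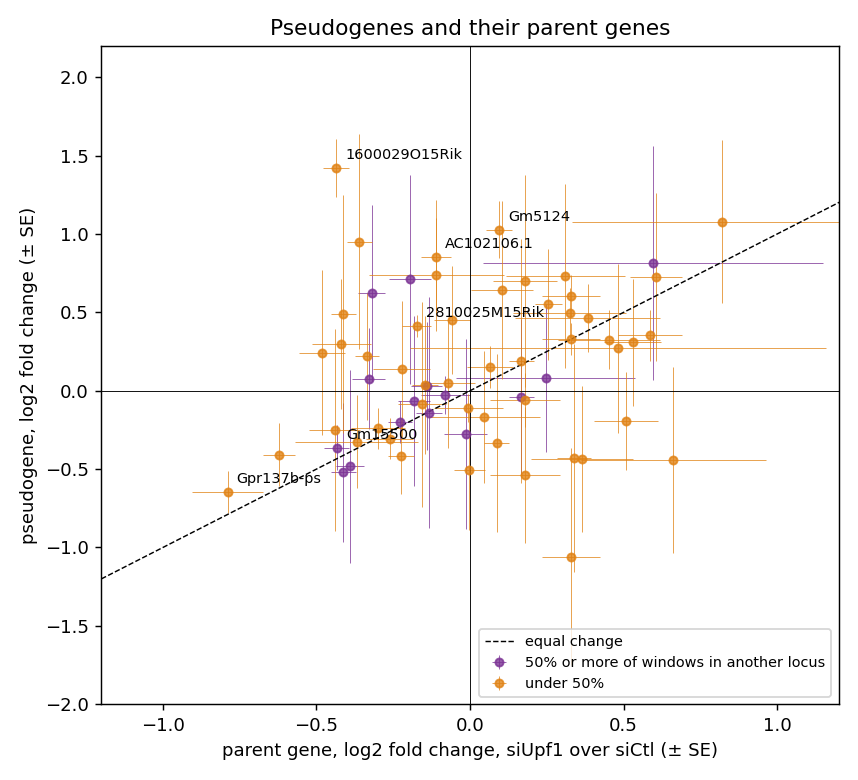
Log2 fold change of siUpf1 over siCtl of each pseudogene (vertical) against that of its parent gene (horizontal) for 64 pairs, with SE bars, some of which run past the frame. Purple points are the 15 pseudogenes with at least 50% of their windows in another locus, and 1600029O15Rik, Gm5124, AC102106.1 and 2810025M15Rik lie above the dashed line of equal change.

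Among families assigned by the symbol of the parent, ribosomal protein copies were the largest. This order rests on symbols: Zfp939 and Zfp125 were counted with the other parents, because their parents have no zinc finger symbol. There were 13 with cytosolic or mitochondrial ribosomal protein parents, of which 3 rose (1600029O15Rik, 2810025M15Rik and AC102106.1), 1 fell (Gm15500) and 9 were not called. Among the 12 with a cytosolic parent, the 4 with at least 50% of windows in another locus had a median log2 fold change of -0.42 beside -0.40 for their parents. The 8 with less shared sequence had 0.57 beside -0.20. The interval of the difference from the parent lay above 0 for 3 of these 8 and included 0 for 5. Zinc finger parents came second, with the 12 described above. The other families were small: 3 copies of ubiquitin-pathway genes, 3 of chromatin proteins, 2 each of chaperones, respiratory chain genes and the phosphatidylserine decarboxylase gene Pisd, 1 of an RNA-binding protein gene and 1 olfactory receptor copy had no called member. The 37 copies of other parents held 4 that rose and 4 that fell. The share called was 30.8% among the 13 ribosomal protein copies and 21.6% among these 37. Of all genes tested, 44.9% were called, 22.0% as higher and 22.9% as lower. A930017M01Rik aligned to Smg5, whose protein acts in NMD beside UPF1, at 64.8% identity over 1036 bases. It had 26.2 and 61.3 normalised counts in siCtl and 64.0, 66.5 and 63.3 in siUpf1, with siCtl replicate 1 well below the other 4 libraries, and was not called (log2 fold change 0.55, SE 0.35).

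Breaks in the alignment with the coding sequence of the parent divided the 76 copies further. A frame shift is here a gap in 1 alignment whose length is not a multiple of 3. It does not by itself show a disabled reading frame. Gm5113 had 12 such gaps at 66.8% identity to Zfp420, while Ube2d-ps was open over only 105 aligned bases. In 53, the alignment with the coding sequence of the parent held a frame shift or an in-frame stop, and 10 of these rose and 3 fell, with a median log2 fold change of 0.27. In the other 23, the aligned part was open, and none rose and 2 fell (Gm15500 and Gm6222), with a median of -0.11. The share called was 24.5% with a frame shift or stop and 8.70% without, against 44.9% of all genes tested. Median levels were 41.0 and 32.5 normalised counts. In 13 of the 23 the whole coding sequence of the parent aligned. Sequence shared with another locus was a further property: 15 pseudogenes, all processed, had at least 50% of their windows in another locus, and none rose, 1 fell and 14 were not called, with a median of -0.04. The 85 with less shared sequence had 14 that rose and 5 that fell, with a median of 0.25. The share called was 22.4% in these 85 and 6.67% in the 15, at median levels of 44.2 and 25.7 normalised counts. Of the 23 open copies, 13 were among these 15, with a median of -0.04 and 1 that fell. The other 10 had under 50% of their windows elsewhere, and none rose and 1 fell, with a median of -0.21. Of the copies with a frame shift or stop, 51 had under 50% of their windows elsewhere, with 10 that rose, 3 that fell and a median of 0.27.

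**Figure D4:**
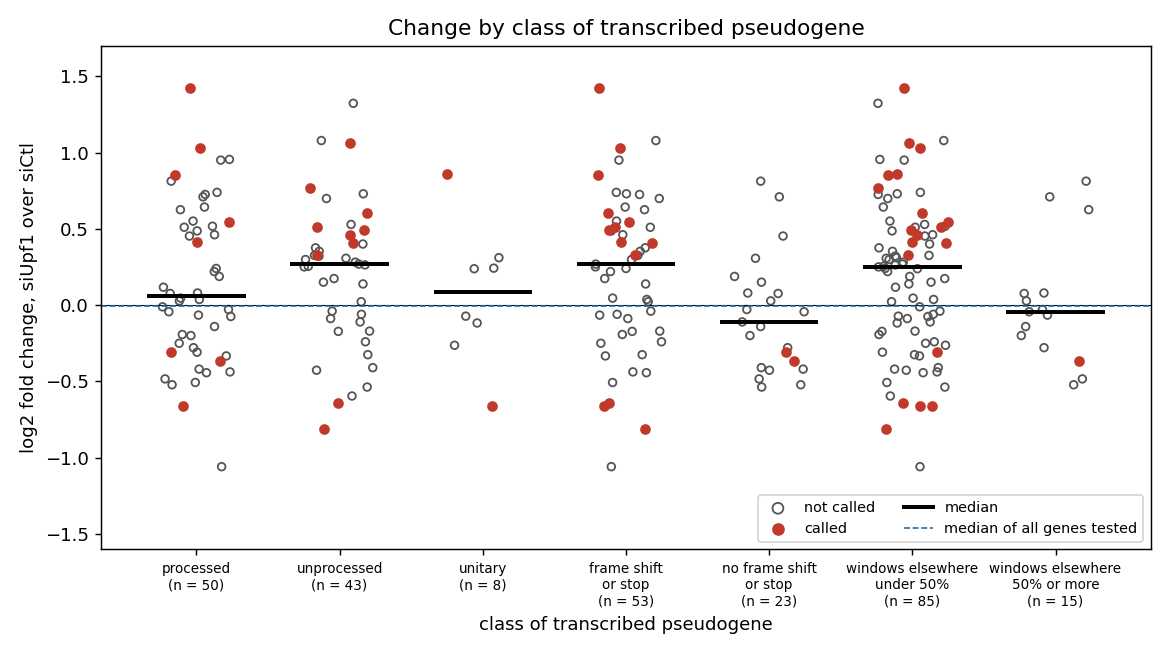
Log2 fold change of siUpf1 over siCtl (vertical) of transcribed pseudogenes by type, by whether the alignment with the coding sequence of the parent holds a frame shift or stop, and by the share of 100-base windows found in another locus. Each pseudogene is a point in every class it belongs to, red if called, the bars are medians, and the dashed line is the median of all genes tested (-0.0024).

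Splicing was described in the same way, from the longest transcript of each pseudogene in the reference. Of the 100 found there, 65 had at least 2 exons, with 13 higher, 3 lower and a median of 0.28. The other 35 had 1 exon, with 1 higher, 3 lower and a median of 0.04. The share called was 24.6% and 11.4% in these classes, against 44.9% of all genes tested. Their levels differed as well, with medians of 62.7 and 31.7 normalised counts, and the part of the level was not tested. Of the processed pseudogenes 20 were spliced in this way, although such copies arise from spliced mRNA. The stop of the longest open reading frame lay more than 50 nt upstream of the last junction in 16, of which 3 rose (Zfp862-ps, Ppp4r1l-ps and 2610005L07Rik) and 2 fell (Gpr137b-ps and H2-K2), with a median of 0.13. In the 49 other spliced pseudogenes, 10 rose and 1 fell, with a median of 0.28. The share called was 31.25% with such a stop and 22.4% without, at median levels of 169 and 44.0 normalised counts. Whether any of these frames is translated in N2A cells is not known from RNA counts.

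Exon bases were shared with a gene on the same strand by 16 pseudogenes, of which 3 rose and none fell, and with a gene on the opposite strand by 24, of which 6 rose and none fell. Of the opposite neighbours of those 6, Islr2 was itself called, while Rasal2 beside 2810025M15Rik had a log2 fold change of -0.06 (SE 0.07). Zim3, A530083I20Rik, Gm7887 and Gm26593 had means of at most 27.6 normalised counts. Among all genes tested, 22.0% were called as higher and 22.9% as lower, so the share called as higher was near the background in both classes. Median levels were 53.2 normalised counts in the same-strand class and 59.5 in the opposite-strand class, beside 36.8 for all 101. Whether shared exon bases go with increases was not tested.

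Other well-expressed pseudogenes were not called. 4632415L05Rik, an unprocessed pseudogene with 1 exon, had 369 and 368 normalised counts in siCtl and 438, 446 and 445 in siUpf1, and missed the threshold with groups apart (log2 fold change 0.26, SE 0.12, DESeq2 adjusted p = 0.0547). Gm7666, a copy of the prohibitin gene Phb with 86.1% of its windows in another locus, had 381 and 385 normalised counts in siCtl and 372, 382 and 374 in siUpf1. Gm6472, a copy of Rps7, had 325 and 326 in siCtl and 284, 281 and 286 in siUpf1. The first of these copies overlapped between groups and the second was lower in each siUpf1 library, as was Rps7 (-0.23). Pisd-ps1, a copy of the phosphatidylserine decarboxylase gene, had 200.2 and 180.2 in siCtl and 180, 187 and 181 in siUpf1, and Magef1, a processed gene of the MAGE family, lay between 141 and 149 in all 5 libraries. Both overlapped between groups. edgeR added 13 calls to those of DESeq2, among them 4632415L05Rik, 2700099C18Rik, Zfp939, Gm5113 and Gm10499. Among the 64 pseudogenes with lower means, log2 fold changes ranged from -1.06 (Zfp389) to 1.32 (Gm31663), with SEs of 0.69 and 0.73 at these ends.

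Seed matches of the siRNA were searched in the longest transcript, on the sense strand only. The 7 letters GATAATT, complementary to bases 2 to 8 of the strand shown above, occurred in 15 of 100 pseudogenes, beside 7.49% of tested genes of like transcript length. Of these 15, 3 rose (Ppp4r1l-ps, Gm21926 and Gm10033) and 1 fell (Gpr137b-ps), with a median log2 fold change of 0.45. AACCTTG, the match to the opposite strand of the siRNA, occurred in 15 as well, beside 12.5% of such genes, of which 2 rose and 1 fell (H2-K2), with a median of 0.08. The 72 with neither match had 10 that rose and 4 that fell, with a median of 0.16. Calls made up 26.7% of the 15 with GATAATT and 19.4% of the 72 with neither match, and the share with AACCTTG lay between these. Of all genes tested, 44.9% were called, 22.0% as higher and 22.9% as lower, so each class had a smaller share called than the background. Whether a seed match goes with a change was not tested.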

How the data were processed

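Polyadenylated RNA of N2A cells was sequenced from strand-specific libraries. The authors deposited unnormalised read counts per gene. They trimmed reads with fastp, mapped them to GRCm38.p6 with STAR (2.7.0f in the submitters' processing notes) and counted exonic reads on the reverse strand with featureCounts of Subread (1.6.4), with GENCODE M22 or M25. Reads that match several loci are discarded with the counting options the paper lists, so near-identical copies are uncertain. Duplicate reads cannot be seen in such counts.

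The fit was DESeq2 (1.42.0, R 4.3.3) over all genes and 5 libraries, using median-of-ratios normalisation, no covariate besides the group, independent filtering and Benjamini-Hochberg adjustment over all genes tested. The threshold for a call was an adjusted p of 0.05. edgeR (4.0.16), other size factors, count minimums and omitted libraries were alternatives. An exact permutation test of 2 against 3 libraries cannot give a p under 0.1 and was not used. Scripts were tested on simulated data. Means are of normalised counts.

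Positions, exons and transcripts came from GENCODE M21 (same build), which held 100 of the 101 identifiers, 6 with another gene type. Parents were taken from the symbol or the best blastn (2.17.0) hit (e-value under 1e-10, at least 100 aligned bases) among protein-coding genes of another locus. The further minimum of 100 parent coding bases, the split at 100 normalised counts and the 50% split of windows were set after seeing the data. Named genes were Upf1, up to 10 called pseudogenes with the largest and 10 with the smallest fold change (mean of at least 20, groups apart), the 10 highest means, unitary pseudogenes, 3 on each side of the minimum, and parents and hosts. Values of host genes are not reported here. Others, such as Zfp125, 3110053B16Rik, Slfn10-ps, Gm10499, 6820431F20Rik, A930017M01Rik, members of pairs and uncalled pseudogenes of high level, were chosen after their values were seen. The members and lists were chosen with earlier results of these data known.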

Additional observations from a re-analysis of the deposited data

How the results depend on the processing

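Of the 20 calls, 12 (9 higher and 3 lower) held under all 11 alternative fits and 8 were lost under at least 1, all of them also by leaving out a library, and none of the 20 changed direction. edgeR called 25 higher, and all 20 calls were among its 33. Without independent filtering 3 were lower. The median log2 fold change was 0.24 for pseudogenes with at least 200 summed counts, 0.25 with at least 500 and 0.25 for those with under 50% of windows in another locus (chosen after seeing the data), which hold fewer genes. Leaving out 1 library gave an adjusted p for 64 to 94 of the 101, with 10 to 12 higher and 3 to 4 lower, and medians over all 101 from 0.16 to 0.23. Of 326 values of named genes under the alternatives, 285 stayed on their side of the threshold and 41 lost their call with the same direction, and of 117 differences from a parent gene, 10 moved by more than the SD between siUpf1 libraries, all on leaving out a siCtl library. Another 48 had no adjusted p or fold change. Whether the replicate numbers pair the libraries is not known. Correlations of deviations from the group means were -0.053 for number 1 and -0.086 for number 3. The deviations of the 2 siCtl libraries mirror each other, so these values cannot decide it. With the replicate block, 9 were higher and 3 lower among the 56 with an adjusted p, and the median over all 101 was 0.14. The causes were not tested. Of the 64 pseudogenes under 100 normalised counts, 2 were called (3.1%, against 12.3% of all genes tested at that level). Low counts limit the precision of their fold changes. Their median SE was 0.51, beside 0.49 for all genes tested at that level. The part of the level in the number of calls was not tested.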
